A study of Mus musculus with 9 samples.

Results

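Mouse chromosome 3 held 666 genes with a mean of 0.5 CPM or more (counts per unit of TMM-scaled library size, not corrected for gene length) over 9 RNA-seq libraries, out of 2885 chromosome 3 genes in the files and 13052 genes at that minimum in the genome. They were split by gene midpoint into 185 genes under 75 Mb and 481 genes at or over 75 Mb. Relative to the near side, the median gene of the far side stood at 72.1% of its Gcontrol level in the cells called G1C7 and at 95.1% in the cells called G2C9. The chromosome and the 75 Mb boundary were proposed from these same libraries, from the levels of G1C7 and G2C9 against Gcontrol. The step against Gcontrol is therefore described here and not tested. Far genes were counted as not following the step where they lay above the midline between the side medians. In both derivatives 96 of them (20.0%) did, among them Dkk2, Ak5, Arhgap29 and Fam198b, and 28 (5.82%) in all 6 derivative libraries. Of the near genes, 39 (21.1%) lay below the midline in both derivatives. The step in G2C9 was small, so its midline separates little.

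The cells are NP53, a mouse diffuse midline glioma line grown in DMEM with fetal bovine serum. Gcontrol carries the label WT for genotype, and G1C7 and G2C9 are its derivatives labelled TIM-3 knockout; TIM-3 is the immune checkpoint receptor encoded by Havcr2. Each of the 3 groups had 3 libraries of poly(A) RNA, prepared with a stranded kit and read as pairs of 100 bases on a NovaSeq instrument. The labels do not say whether a derivative is 1 clone, how the gene was disrupted, or whether libraries of a group came from separate cultures, so the spread between libraries may be technical.

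Mouse chromosomes have their centromere at the low-numbered end, so that positions count away from it. Genes along a chromosome have their own promoters and usually serve unrelated functions, and a stretch of many megabases normally holds genes that move in both directions when cells differ. Chromosome 3 is known for tight gene families on its far side, among them the calcium-binding S100 proteins, the interferon-induced guanylate-binding proteins and the Gstm glutathione transferases, and for growth genes such as Nras, Csf1 and Notch2. The near side carries Sox2, a transcription factor of neural progenitors, and growth regulators such as Fgf2 and Pik3ca.

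Promoters of 4 far-side genes named below are shown for reference. No level or call given here rests on them, and a part of these sequences in the levels was not tested. Pdcd10 and Serpini1 are the first 2 genes of the set past the boundary, start 641 bases apart on opposite strands, and went opposite ways in G2C9. Dkk2 was higher in both derivatives and Gbp2 lower in both. Sequences are from RefSeq (GRCm38.p6, the build of the files) and are written 5′ to 3′ along each gene. They run from 250 bases before the RefSeq start site to 50 bases after it. For Serpini1 the gene as placed by the files begins just past the end of this window. In the first 3, capitals mark CG dinucleotides, the pairs that DNA methylation acts on. In the Gbp2 sequence, capitals mark the only match to GAAANNGAAA on either strand, the core of an interferon response element.
Pdcd10, minus strand, chr3:75556803-75557102: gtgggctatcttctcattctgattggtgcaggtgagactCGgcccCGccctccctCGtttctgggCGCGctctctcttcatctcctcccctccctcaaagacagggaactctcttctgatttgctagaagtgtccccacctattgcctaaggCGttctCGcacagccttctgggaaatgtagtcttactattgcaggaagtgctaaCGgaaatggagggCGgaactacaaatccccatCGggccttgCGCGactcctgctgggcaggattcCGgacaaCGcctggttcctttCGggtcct
Serpini1, plus strand, chr3:75557243-75557542: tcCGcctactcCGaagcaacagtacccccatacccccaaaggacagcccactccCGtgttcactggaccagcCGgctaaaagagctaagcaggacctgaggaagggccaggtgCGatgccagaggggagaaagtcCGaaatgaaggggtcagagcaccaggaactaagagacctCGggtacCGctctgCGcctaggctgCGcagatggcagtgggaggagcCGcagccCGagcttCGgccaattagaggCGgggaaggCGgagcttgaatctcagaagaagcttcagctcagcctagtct
Dkk2, plus strand, chr3:132085042-132085341: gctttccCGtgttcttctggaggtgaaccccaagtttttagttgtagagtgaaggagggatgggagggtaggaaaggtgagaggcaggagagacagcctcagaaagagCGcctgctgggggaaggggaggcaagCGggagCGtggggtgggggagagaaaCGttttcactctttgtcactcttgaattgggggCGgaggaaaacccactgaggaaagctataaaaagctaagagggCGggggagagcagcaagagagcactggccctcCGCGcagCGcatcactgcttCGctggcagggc
Gbp2, plus strand, chr3:142620413-142620712: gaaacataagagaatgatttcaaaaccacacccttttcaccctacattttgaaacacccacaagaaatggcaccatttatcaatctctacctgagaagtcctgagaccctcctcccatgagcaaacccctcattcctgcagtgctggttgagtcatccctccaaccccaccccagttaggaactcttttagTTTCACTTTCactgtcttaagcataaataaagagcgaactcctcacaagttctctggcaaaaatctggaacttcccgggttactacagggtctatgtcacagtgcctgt

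Pdcd10 and Serpini1 each held 15 CG pairs in these 300 bases, Dkk2 held 11 and Gbp2 held 2. Of the 666 genes, 485 had a promoter in the RefSeq table. The median was 22 CG pairs for the 118 near promoters, 19 for the 367 far promoters and 7 for all 32851 mouse promoters in the table. Those 32851 were not limited to genes at the CPM minimum, so they are an unlike set beside the near and far promoters. Among far promoters, the median was 16 for the 73 of genes that did not follow the step in either derivative and 19 for the other 294. GAAANNGAAA was found on either strand in 4.24% of near promoters, 2.72% of far promoters and 3.44% of all promoters. These are descriptions of letters in a window and not binding sites.

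Libraries held between 50110129 and 56035382 reads in genes. Within their groups, G1C7 replicate 2 and G2C9 replicate 3 were unlike the other libraries: the chi-square per degree of freedom over genes was between 170 and 284 for the 4 pairs within a group that held 1 of them and between 4.71 and 13.7 for the other 5. Haptoglobin (Hp), an acute-phase protein, was at 205 and 493 CPM in these 2 libraries and between 2.99 and 21.5 CPM in the other 7. Results are therefore also given without both. The targeted gene Havcr2 had few reads in every library, 74, 58 and 60 in Gcontrol, 55, 6 and 66 in G1C7 and 39, 30 and 28 in G2C9, so reads per gene do not check the knockout labels. Of the glioma and oligodendrocyte precursor markers, Olig2 had no read in any library and Sox10 at most 2, while Pdgfra, Nes and Sox2 were present in all 9; Cspg4 was between 38.4 and 47.7 CPM in Gcontrol and between 0.910 and 5.41 CPM in the derivatives. Of 3 fibroblast genes, Col1a1 was at 1282 to 3522 CPM, Dcn at 296 to 2573 CPM and Lum at most 0.273 CPM. The 3 T cell markers summed to at most 0.117 CPM.

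The far side of chromosome 3 was lower in every G1C7 library. Against the Gcontrol mean on log2(CPM + 0.5), the median far gene was at -0.49, -0.40 and -0.49 in the 3 G1C7 libraries, at -0.13, -0.10 and -0.09 in G2C9 and at 0.00, 0.01 and -0.01 in Gcontrol. The median near gene was at -0.04, 0.06 and -0.02 in G1C7, at -0.03, -0.03 and -0.08 in G2C9 and at 0.00, 0.04 and -0.04 in Gcontrol. The step, the far median minus the near median, was thus -0.45, -0.46 and -0.47 in G1C7, -0.10, -0.07 and -0.02 in G2C9 and 0.00, -0.03 and 0.03 in Gcontrol. The 3 G1C7 libraries lay close together and did not overlap with any other library. G1C7 replicate 2, which stood apart over all genes, had a step as large as the other 2. G2C9 replicate 3 overlapped with Gcontrol replicate 2.

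**Figure D1:**
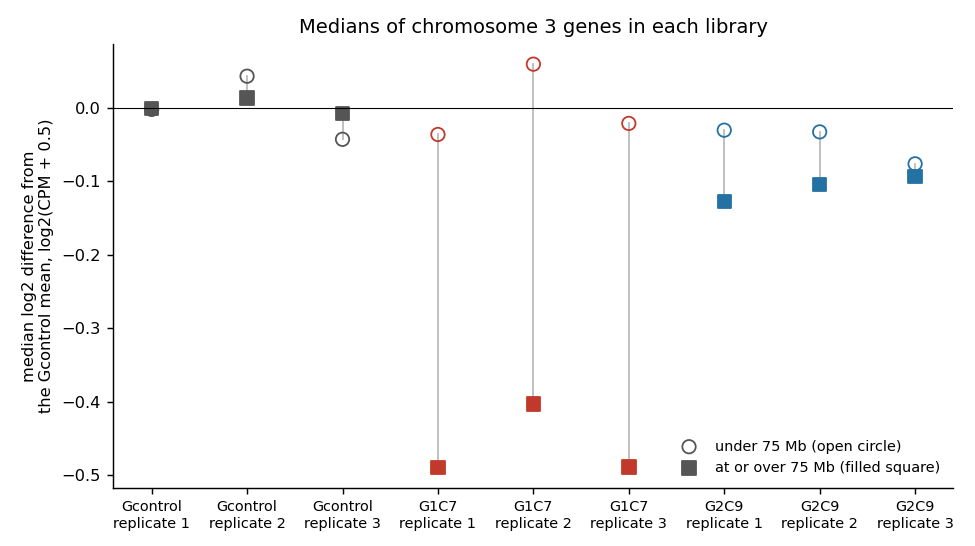
Median log2 difference from the Gcontrol mean of the 185 chromosome 3 genes under 75 Mb (open circles) and the 481 at or over 75 Mb (filled squares), on log2(CPM + 0.5), in each of the 9 libraries; grey lines join the medians of 1 library. The far medians of the 3 G1C7 libraries sit between -0.49 and -0.40, below those of the other 6 libraries.

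In the fit over all genes, the median log2 fold change of far genes was -0.46 in G1C7 (quartiles -0.67 and -0.21) and -0.10 in G2C9 (quartiles -0.29 and 0.10). That of near genes was 0.01 in G1C7 and -0.03 in G2C9, next to a median over all genes tested of 0.02 and 0.01. The step was -0.47 in G1C7 and -0.07 in G2C9, so that far genes were at 72.1% and 95.1% of Gcontrol relative to near genes. Of the 481 far genes, 419 (87.1%) were below 0 in G1C7 and 309 (64.2%) in G2C9, against 48.6% and 48.5% of all genes. Of the 185 near genes, 90 (48.6%) were below 0 in G1C7 and 101 (54.6%) in G2C9. Both comparisons share the Gcontrol libraries. Without both libraries that stood apart the steps were -0.49 and -0.09.

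As a share of the TMM-scaled library size, the 481 far genes held 4.24% ± 0.0393 in Gcontrol, 3.08% ± 0.00789 in G1C7 and 3.95% ± 0.117 in G2C9 (SD, n = 3 each). The 185 near genes held 1.38% ± 0.0402, 1.48% ± 0.0205 and 1.47% ± 0.0120. The far share was between 3.07% and 3.09% in G1C7, between 3.82% and 4.05% in G2C9 and between 4.21% and 4.28% in Gcontrol, with no overlap between the groups.

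With edgeR's quasi-likelihood test at an adjusted p under 0.05, 195 far genes were called lower in G1C7 and 9 higher, where 8.73% of all 15659 genes tested were lower and 8.77% higher. Of the near genes 13 were called lower and 14 higher. In G2C9, 35 far genes were called lower and 19 higher, and 16 near genes lower and 9 higher, beside 7.22% and 6.25% of all genes. Since these contrasts chose the boundary, the counts add no support to it. They also moved with single libraries: the 195 far genes called lower in G1C7 became 105, 115 or 123 without Gcontrol replicate 1, 2 or 3 and 270 without G1C7 replicate 2. The share of all genes called is not given for these fits, so a move of the far count cannot be told from one over all genes. Without both libraries that stood apart, 373 far genes were called lower and 16 higher in G1C7, beside 27.9% and 26.4% of all genes, and 189 and 78 in G2C9, beside 27.6% and 25.4%. With no regard to a model, all 3 G1C7 libraries lay below all 3 Gcontrol libraries for 297 far genes (61.7%) and 40 near genes (21.6%), beside 22.1% of all genes. All 3 lay above for 15 far genes and 37 near genes, beside 21.0%. In G2C9 all 3 libraries lay below Gcontrol for 161 far genes (33.5%) and 51 near genes (27.6%), beside 22.9%, and above it for 66 and 29, beside 20.4%.

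The comparison of G1C7 with G2C9 was not named in the rule, but it uses the same G1C7 and G2C9 libraries. Their levels against Gcontrol chose the boundary, so this comparison is not independent of the rule. Its calls and adjusted p describe single genes and add no support to the boundary. The median log2 difference of far genes was -0.36 (quartiles -0.56 and -0.17), that of near genes 0.06 and that of all genes 0.01, a step of -0.42. Of the far genes 425 (88.4%) were below 0, of the near genes 73 (39.5%) and of all genes 48.9%. By edgeR's test 84 far genes were called lower and 4 higher, where 1.65% of all genes were lower and 1.71% higher (3.36% either way); of the near genes 0 were called lower and 3 higher. At 17.5%, the share of far genes called lower was above that of all genes. The 84 became 28, 30, 33 and 36 without G2C9 replicate 2, G1C7 replicate 1, G1C7 replicate 3 or G2C9 replicate 1, 42, 50 and 47 without Gcontrol replicate 1, 2 or 3, and 162 without G1C7 replicate 2. For these fits too the share of all genes called is not given. Without both libraries that stood apart they were 323, with 13 higher, beside 12.5% and 14.8% of all genes, and all 84 were among them. Of the 84 genes, 75 (89.3%) were also called lower against Gcontrol, which is 38.5% of those 195. All 3 G1C7 libraries lay below all 3 G2C9 libraries for 211 far genes (43.9%) and 5 near genes (2.70%), beside 8.5% of all genes, and above them for 9 and 21, beside 9.74%.

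**Figure D2:**
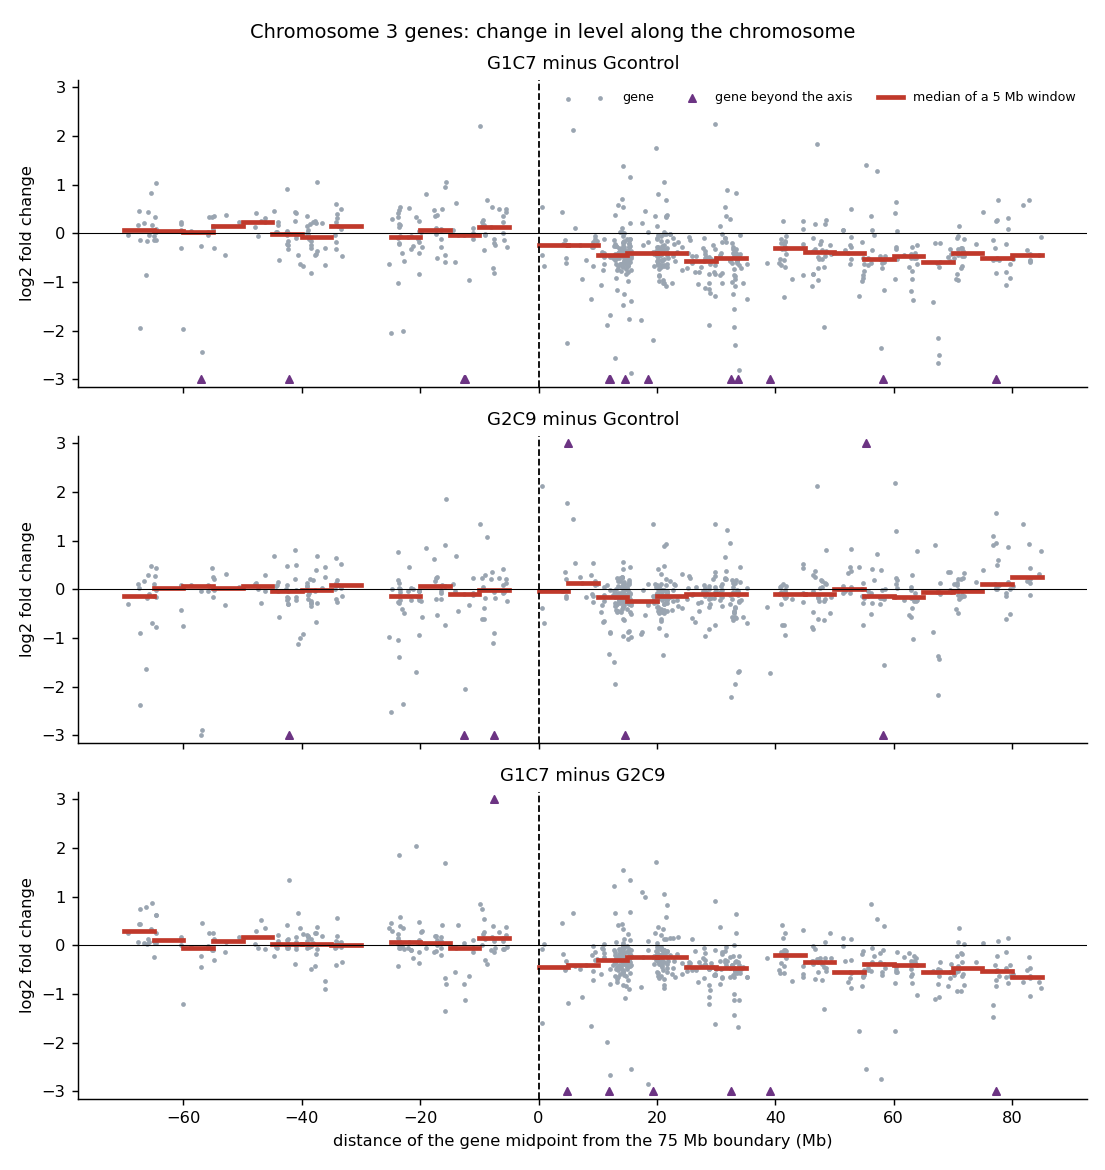
Log2 fold change of the 666 chromosome 3 genes in the fit over all genes, against the distance of the gene midpoint from the 75 Mb boundary in Mb (negative: nearer the centromere), for the 3 comparisons; red bars are medians of 5 Mb windows with 5 or more genes, and triangles are the 13, 7 and 7 genes beyond ±3. All 16 windows past the boundary are below 0 in the top and bottom panels.

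The lower level ran to the end of the chromosome. In G1C7 all 16 windows of 5 Mb past the boundary with 5 or more genes had a median below 0, from -0.59 at 140 to 145 Mb to -0.24 at 80 to 85 Mb. Before the boundary 4 of 12 windows were below 0, between -0.09 and 0.23. Between the derivatives the 16 far windows were all below 0 as well, from -0.65 at 155 to 160 Mb to -0.20 at 115 to 120 Mb, and 2 of the 12 near windows were. G2C9 against Gcontrol went both ways past the boundary: 12 of 16 far windows were below 0, the lowest -0.23 at 90 to 95 Mb, and the last windows were above 0, at 0.10 for 150 to 155 Mb and 0.26 for 155 to 160 Mb. In 4 stretches that began at 75, 95, 115 and 135 Mb, the median of far genes was -0.42, -0.49, -0.42 and -0.47 in G1C7 and -0.15, -0.12, -0.07 and 0.02 in G2C9. G1C7 was thus similar over the 4 stretches while G2C9 was nearer to 0 towards the end. The difference between the derivatives went from -0.29 in the first stretch to -0.52 in the last. Within the first stretch G1C7 was not level: its window medians were -0.25 at 75 to 80 Mb and -0.24 at 80 to 85 Mb. They were -0.45 at 85 to 90 Mb and -0.41 at 90 to 95 Mb.

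The files place no gene of this set between 69.7 and 75.5 Mb, so a boundary at 70 Mb gives the same split. When every position was tried as a single boundary, with 20 or more genes on each side, the one that left the least deviation from the 2 medians in G1C7 lay between Fnip2 at 79.5 Mb and Ppid at 79.6 Mb, with 191 genes before it and a difference of -0.47. For G1C7 minus G2C9 it lay between the pseudogene Gm9762 at 79.0 Mb and Rapgef2 at 79.2 Mb, with a difference of -0.42. Among the 20 chromosomes, 1 to 19 and X, chromosome 3 had the largest drop in deviation from a single boundary in both comparisons, 9.33% and 14.8%. By the size of the difference it was the third in G1C7 and the second between the derivatives, where chromosome 12 had a difference of 0.44. In G2C9 the best boundary on chromosome 3 was elsewhere, between Rpf1 at 146.5 Mb and Prkacb at 146.8 Mb, with higher levels after it by 0.26, and ranked the ninth of 20 by drop in deviation.

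Few genes lie near the boundary. The last gene before it was Nmd3 (ENSMUSG00000027787.14, chr3:69721985-69756373), an export adaptor of the large ribosomal subunit. It was at 158, 171 and 143 CPM in Gcontrol, 143, 95.6 and 149 CPM in G1C7 and 135, 142 and 122 CPM in G2C9. G2C9 lay below Gcontrol, G1C7 overlapped with both, and G1C7 replicate 2 was the lowest of all. The first gene past the boundary was Pdcd10 (ENSMUSG00000027835.11, chr3:75516490-75556856), a scaffold protein known from cerebral cavernous malformations. It was at 59.4, 63.7 and 57.1 CPM in Gcontrol, 43.7, 43.7 and 43.9 CPM in G1C7 and 43.9, 46.9 and 46.8 CPM in G2C9. All 6 derivative libraries lay below the 3 Gcontrol libraries, by -0.46 (SE 0.08) on the log2 scale in G1C7 and -0.39 (SE 0.08) in G2C9, and the derivatives differed by -0.07 (SE 0.08) without overlap.

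Its neighbour Serpini1 (ENSMUSG00000027834.15, chr3:75557547-75643495) encodes neuroserpin, an inhibitor of tissue plasminogen activator. It was at 3.92, 4.64 and 3.6 CPM in Gcontrol, 2.86, 11.3 and 3.43 CPM in G1C7 and 11.3, 11.7 and 29.8 CPM in G2C9. All 3 G2C9 libraries were above Gcontrol, while in G1C7 only replicate 2 was, and the log2 difference of 0.53 in G1C7 became -0.36 without it. Golim4 (ENSMUSG00000034109.15, chr3:75875084-75956949), a Golgi membrane protein, was at 199, 189 and 190.0 CPM in Gcontrol, 118, 133 and 114 CPM in G1C7 and 116, 115 and 127 CPM in G2C9. It was lower in all 6 derivative libraries, by -0.66 (SE 0.09) in G1C7 and -0.70 (SE 0.09) in G2C9, and the derivatives overlapped, with a difference of 0.03 (SE 0.09) whose sign turned without G1C7 replicate 2 (-0.03) or G2C9 replicate 2 (-0.0055). Pdcd10 and Golim4 thus differed between the derivatives by less than the median far gene.

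The next 2 protein-coding genes, near 79 Mb, had no G1C7 library group below Gcontrol. Rapgef2, an activator of Rap GTPases, was at 58.4, 54.7 and 63.8 CPM in Gcontrol, 60.9, 32 and 58.3 CPM in G1C7 and 70.1, 63.5 and 38.1 CPM in G2C9, and all 3 groups overlapped. Fnip2, a partner of folliculin, was at 45.3, 42.5 and 48.5 CPM in Gcontrol, 46.9, 31.5 and 45.1 CPM in G1C7 and 64.4, 57.3 and 53.5 CPM in G2C9. G2C9 was above Gcontrol in all 3 libraries, and G1C7 replicate 2 alone was below it. Ppid, an Hsp90 cochaperone that follows at 79.6 Mb and is named because the best boundary lies before it, was at 371, 391 and 348 CPM in Gcontrol, 274, 183 and 275 CPM in G1C7 and 349.5, 375 and 277 CPM in G2C9. All 3 G1C7 libraries were below Gcontrol, by -0.60 (SE 0.17), and G2C9 overlapped with Gcontrol.

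**Figure D3:**
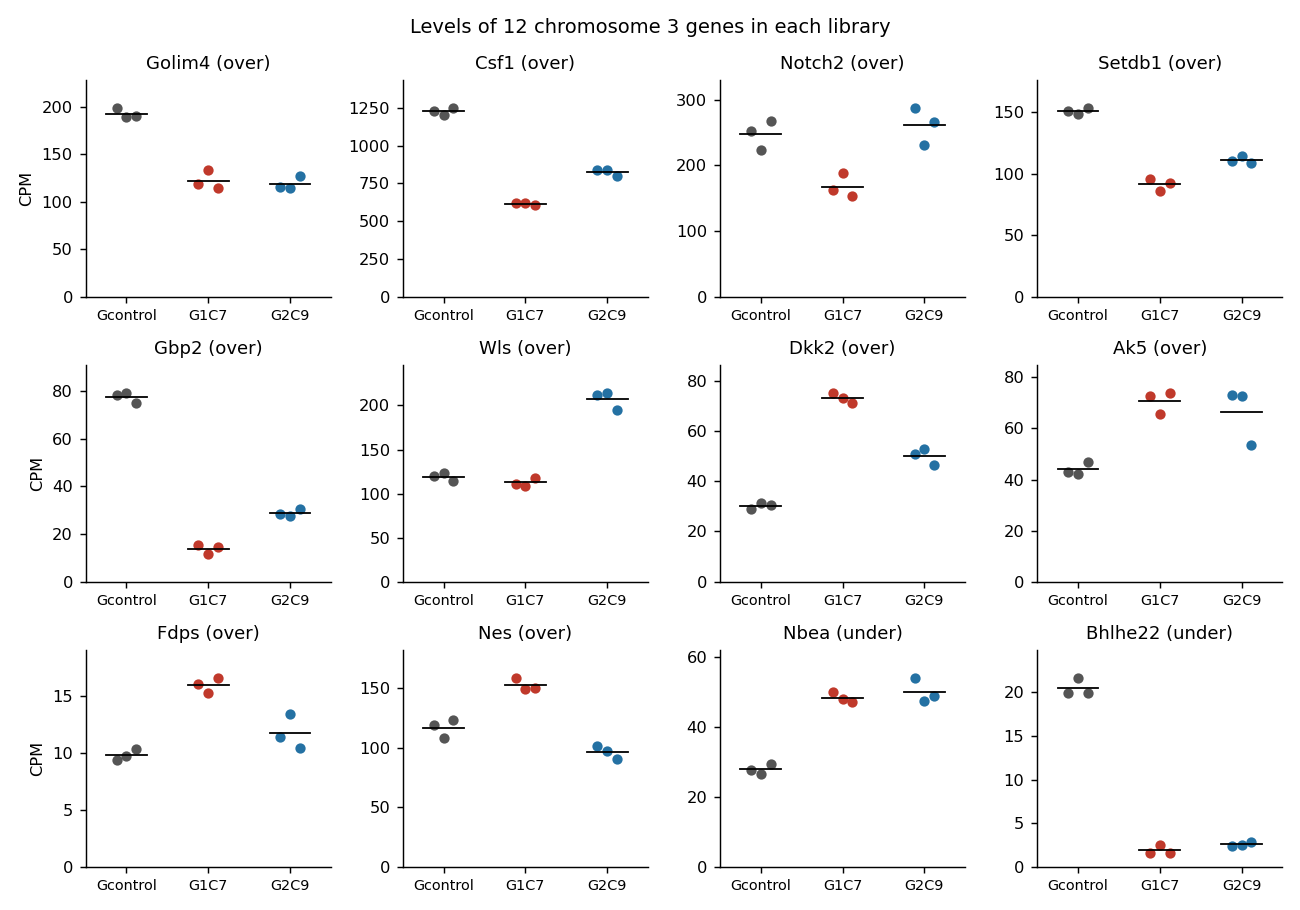
CPM of 12 chromosome 3 genes in each library (points) with the group mean (line); the vertical axes start at 0 and differ between genes, and the title gives the side of the boundary. Golim4, Csf1, Notch2, Setdb1 and Gbp2 are lower in all 3 G1C7 libraries than in Gcontrol, while Dkk2, Ak5, Fdps and Nes are higher there.

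The far genes with the most reads by CPM, which is not per gene length, showed the step in most cases. Csf1 (ENSMUSG00000014599.10, chr3:107741048-107760469), the growth factor of macrophages and microglia, was at 1231, 1202 and 1249 CPM in Gcontrol, 618, 622 and 606 CPM in G1C7 and 837, 842 and 796 CPM in G2C9. The 3 groups did not overlap, with a log2 difference from Gcontrol of -1.0 (SE 0.08) in G1C7 and -0.57 (SE 0.08) in G2C9. Rps3a1, a protein of the small ribosomal subunit, was at 995, 1066 and 951 CPM in Gcontrol, 689.7, 729 and 744 CPM in G1C7 and 849.7, 912 and 782 CPM in G2C9. All G1C7 libraries were below the other 6, by -0.48 (SE 0.09) against Gcontrol.

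Lmna, which encodes the nuclear lamins A and C, was at 1241, 1214 and 1299 CPM in Gcontrol, 912, 565 and 871 CPM in G1C7 and 1007, 1013 and 750.2 CPM in G2C9. Gcontrol was above all 6 derivative libraries, and G1C7 replicate 2 and G2C9 replicate 3 were the lowest of their groups. S100a6, a calcium-binding protein, was at 1602, 1666 and 1626 CPM in Gcontrol, 1309.6, 1175 and 1322 CPM in G1C7 and 1338, 1432 and 1321 CPM in G2C9, again below Gcontrol in all 6 derivative libraries, by -0.36 (SE 0.09) and -0.26 (SE 0.09). Hdgf, a nuclear growth factor, was at 946, 975 and 930.4 CPM in Gcontrol, 780.4, 553 and 793 CPM in G1C7 and 953, 998 and 706 CPM in G2C9. It was below Gcontrol in all 3 G1C7 libraries, and G2C9 overlapped with both. Ccn1, a matrix protein induced by serum and YAP, was at 1029, 1025 and 984 CPM in Gcontrol, 625, 1599 and 607 CPM in G1C7 and 940.0, 1002 and 1377 CPM in G2C9. G1C7 replicates 1 and 3 were below Gcontrol and replicate 2 above it, so the log2 difference of -0.10 became -0.71 without replicate 2.

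Near genes with many reads went both ways. The 65 near genes in the highest tertile of mean CPM had a median of 0.04 in G1C7, with quartiles of -0.12 and 0.24. Ssr3, a subunit of the translocon-associated complex, was at 710.5, 769 and 677 CPM in Gcontrol, 806, 913 and 806 CPM in G1C7 and 784, 839.7 and 895 CPM in G2C9, with all 6 derivative libraries above Gcontrol. Smc4, a condensin subunit, was at 456, 459.5 and 427 CPM in Gcontrol, 548, 499 and 536 CPM in G1C7 and 498, 531 and 396 CPM in G2C9; G1C7 was above Gcontrol in all 3 libraries and G2C9 overlapped with both. Anxa5, a phospholipid-binding annexin, was at 428, 436 and 430.5 CPM in Gcontrol, 500.3, 451 and 528 CPM in G1C7 and 471, 489 and 539 CPM in G2C9, above Gcontrol in all 6 derivative libraries. Tm4sf1, a tetraspanin-like surface protein, was at 411, 436 and 396 CPM in Gcontrol, 634, 413 and 692 CPM in G1C7 and 599, 627 and 679 CPM in G2C9. G1C7 replicate 2 lay within the Gcontrol range and the other 5 derivative libraries above it. Ceruloplasmin (Cp), a copper-binding acute-phase protein, was at 531, 523 and 512 CPM in Gcontrol, 479.9, 799.9 and 463 CPM in G1C7 and 491, 494 and 868 CPM in G2C9, and Ptx3, a pentraxin of innate immunity, was at 302, 313 and 289 CPM in Gcontrol, 261, 926 and 260.2 CPM in G1C7 and 506, 526 and 869.5 CPM in G2C9. In both genes G1C7 replicates 1 and 3 were below Gcontrol and replicate 2 above it, and the log2 difference of 0.15 for Cp became -0.14 without replicate 2.

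Growth signalling genes of the far side were lower in G1C7 for 15 of the 18 measured, with a median of -0.35. In G2C9 8 of 18 were below 0, with a median of 0.05. Over all 481 far genes, 87.1% were below 0 in G1C7 and 64.2% in G2C9. This list and the far-side lists that follow are to be read beside those shares. Between the derivatives the median was -0.47, and 7 of 18 were called lower by edgeR, where 1.65% of all genes and 17.5% of far genes were called lower. Of the 7, Csf1 lost its call without any of 7 libraries, all but G1C7 replicate 2 and G2C9 replicate 3 (edgeR adjusted p from 0.0535 to 0.0934). Notch2 lost it without Gcontrol replicate 1 or 3, G1C7 replicate 1 or 3 or G2C9 replicate 1 (edgeR adjusted p from 0.0512 to 0.0964), and Bmpr1b without G2C9 replicate 1 or 2 (0.0523 and 0.0528). Nras, Notch2, Nfkb1, Mcl1, Eif4e and Ppid are named from the lists or the boundary after their values were seen. Nras, a small GTPase of growth factor signalling, was at 172, 181 and 166 CPM in Gcontrol, 146, 106 and 148 CPM in G1C7 and 192, 194 and 144 CPM in G2C9; G1C7 was below Gcontrol in all 3 libraries and G2C9 overlapped with both.

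Notch2, a receptor of the Notch pathway, was at 253, 223 and 267 CPM in Gcontrol, 162, 188 and 152 CPM in G1C7 and 287, 231 and 266 CPM in G2C9. All 3 G1C7 libraries were below the other 6. Wls (ENSMUSG00000028173.10, chr3:159839672-159938664), the carrier that brings Wnt ligands to the cell surface, is the last gene of the set. It was at 120.0, 123 and 114 CPM in Gcontrol, 111, 109 and 118 CPM in G1C7 and 212, 214 and 194 CPM in G2C9. G2C9 was above the other 6 libraries, by 0.79 (SE 0.08) against Gcontrol, and G1C7 overlapped with Gcontrol, so that the derivatives differed by -0.88 (SE 0.08) (edgeR adjusted p = 7.88e-04). Bmpr1b, a type I receptor for bone morphogenetic proteins, had the same order, at 6.91, 6.49 and 5.22 CPM in Gcontrol, 6.15, 5.37 and 4.73 CPM in G1C7 and 12.6, 12.2 and 10.3 CPM in G2C9. G2C9 was above the other 6 libraries, and G1C7 and Gcontrol overlapped. In both genes the difference between the derivatives came with a higher level in G2C9 and not with a lower one in G1C7.

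All 11 measured interferon and innate immunity genes of the far side were below 0 in G1C7, with a median of -0.64, and 8 of 11 in G2C9, with a median of -0.24. Gbp2 (ENSMUSG00000028270.12, chr3:142620602-142638008), an interferon-induced GTPase whose promoter is printed above, was at 78.1, 79 and 75 CPM in Gcontrol, 15.2, 11.5 and 14.5 CPM in G1C7 and 28.5, 27.3 and 30.3 CPM in G2C9. The 3 groups did not overlap, with -2.50 (SE 0.12) in G1C7, -1.43 (SE 0.11) in G2C9 and -1.06 (SE 0.11) between the derivatives (edgeR adjusted p = 0.00211). Its neighbour Gbp3 was at 11.1, 13.2 and 11 CPM in Gcontrol, 1.76, 1.78 and 2.03 CPM in G1C7 and 2.22, 2.12 and 3.48 CPM in G2C9. Gcontrol was above all 6 derivative libraries, and the derivatives did not overlap, at -0.49 (SE 0.22) with an edgeR adjusted p of 0.337.

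Ptpn22, a tyrosine phosphatase of immune receptor signalling, was at 17.8, 18.1 and 17.9 CPM in Gcontrol, 5.54, 3.77 and 5.33 CPM in G1C7 and 10.3, 11.3 and 8.81 CPM in G2C9, with no overlap between the groups. Nfkb1, the precursor of the p50 subunit of NF-kB, was at 272, 274 and 285 CPM in Gcontrol, 207, 168 and 199 CPM in G1C7 and 281, 285 and 279 CPM in G2C9. There G1C7 alone was lower, by -0.53 (SE 0.09), and G2C9 overlapped with Gcontrol. Of the genes named here, Gbp2, Gbp3 and Ptpn22 were lower in both derivatives, by far more than the median far gene. Nfkb1 was near that median in G1C7 only. These genes do not stand for the list: over its 11 genes, values reached 0.30 in G2C9 and 0.41 between the derivatives.

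Of 14 tumour suppressor, chromatin and survival genes, 13 were below 0 in G1C7 (median -0.56) and 10 in G2C9 (median -0.20). Setdb1, a histone H3 lysine 9 methyltransferase, was at 151, 148 and 153 CPM in Gcontrol, 95.6, 85.7 and 92.4 CPM in G1C7 and 111, 114 and 108 CPM in G2C9. The groups did not overlap, at -0.73 (SE 0.07) in G1C7 and -0.44 (SE 0.07) in G2C9. Mcl1, which blocks apoptosis at mitochondria, was at 279, 293 and 273 CPM in Gcontrol, 193, 150.2 and 196 CPM in G1C7 and 216, 221 and 202 CPM in G2C9, with all 6 derivative libraries below Gcontrol. Chd1l, a chromatin remodeller activated by poly(ADP-ribose), was at 36.8, 36.6 and 37.3 CPM in Gcontrol, 20.6, 13.4 and 20.8 CPM in G1C7 and 28.2, 31.2 and 23.1 CPM in G2C9, and the groups did not overlap.

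Translation and export genes were all below 0, 10 of 10 in both derivatives, with a median of -0.54 in G1C7 and -0.12 in G2C9. Gatb, a subunit of the mitochondrial enzyme that makes glutaminyl-tRNA, was at 11, 11.7 and 12 CPM in Gcontrol, 5.69, 4.81 and 6.14 CPM in G1C7 and 8.34, 8.57 and 8.06 CPM in G2C9. Sec24d, a coat protein of vesicles leaving the endoplasmic reticulum, was at 291, 284 and 301 CPM in Gcontrol, 183, 186 and 172 CPM in G1C7 and 233, 228 and 276 CPM in G2C9. In both genes the groups did not overlap and G1C7 was the lowest. Eif4e, the cap-binding protein, was at 298, 325 and 295 CPM in Gcontrol, 239, 191 and 259 CPM in G1C7 and 306, 322 and 247 CPM in G2C9, lower than Gcontrol in all 3 G1C7 libraries.

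Of 12 metabolic genes, 11 were below 0 in G1C7 (median -0.36) and 6 in G2C9 (median -0.01). Adh7, an alcohol dehydrogenase that also oxidises retinol, was at 83.5, 89.3 and 83.4 CPM in Gcontrol, 36.7, 22.6 and 39.7 CPM in G1C7 and 48, 50.0 and 27.7 CPM in G2C9. All 6 derivative libraries were below Gcontrol. Of 9 measured S100 genes, 8 were below 0 in G1C7 (median -0.47) and 7 in G2C9 (median -0.27). Over all far genes 87.1% and 64.2% were. The 4 measured Gstm genes, which are close in sequence and may share reads, had medians of -0.44 and -0.21.

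Neural genes and matrix genes were mixed. Of 7 measured neural progenitor and synapse genes, 3 were below 0 in G1C7, with a median of 0.38. Nes (ENSMUSG00000004891.16, chr3:87971078-87980451), the intermediate filament nestin of neural progenitors, was at 119, 108 and 123 CPM in Gcontrol, 158, 149 and 149.9 CPM in G1C7 and 101, 96.9 and 90.1 CPM in G2C9. The groups did not overlap: G1C7 was the highest and G2C9 the lowest, a difference of 0.67 (SE 0.08) (edgeR adjusted p = 0.0045). Of 10 matrix and adhesion genes, 9 of them on the far side, 7 were below 0 in G1C7 (median -0.51) and 6 in G2C9 (median -0.04).

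Some far genes lay far below the step. Slc6a17, a transporter of synaptic vesicles, had 686 reads over the 3 Gcontrol libraries, 2 in G1C7 and 134 in G2C9. Relative to library size G1C7 held 1.38% of the G2C9 level (95% exact interval of the counts 0.165% to 5.08%, counting error only), a fitted log2 difference of -5.93 (SE 0.62) (edgeR adjusted p = 0.00199). Dclk2, a microtubule-binding kinase, was at 7.21, 6.63 and 7.16 CPM in Gcontrol, 0.187, 0.255 and 0.183 CPM in G1C7 and 2.73, 1.88 and 3.71 CPM in G2C9, a difference between the derivatives of -3.72 (SE 0.30) (edgeR adjusted p = 5.33e-04). Tchh, trichohyalin of hair follicles, was at 7.28, 7.13 and 7.8 CPM in Gcontrol, 0.973, 0.728 and 0.767 CPM in G1C7 and 5.98, 6.12 and 5.7 CPM in G2C9, with -2.85 (SE 0.17) between the derivatives (edgeR adjusted p = 1.20e-04). G1C7 did not overlap with the other groups in any of these 3 genes.

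Lrba, a protein of vesicle traffic, was at 11, 8.63 and 10.3 CPM in Gcontrol, 2.58, 3.08 and 2.41 CPM in G1C7 and 11.8, 9.84 and 10.4 CPM in G2C9. G1C7 alone was low, at -1.99 (SE 0.16) against G2C9 (edgeR adjusted p = 5.34e-04), and G2C9 overlapped with Gcontrol. Col11a1, a fibrillar collagen, was at 7.54, 6.21 and 6.88 CPM in Gcontrol, 0.0935, 0.182 and 0.0183 CPM in G1C7 and 1.35, 0.898 and 4.02 CPM in G2C9. The groups did not overlap, and the difference between the derivatives of -4.38 (SE 0.74) (edgeR adjusted p = 0.0168) had adjusted p = 0.0707 without G1C7 replicate 1 and 0.0544 without G1C7 replicate 3.

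In Tmem144 and Tdrkh the derivatives went opposite ways. Tmem144, a membrane protein, was at 0.85, 1.13 and 1.02 CPM in Gcontrol, 0.224, 0.255 and 0.146 CPM in G1C7 and 2.79, 4.04 and 3.4 CPM in G2C9. G1C7 was below Gcontrol and G2C9 above it with no overlap, a difference of -4.02 (SE 0.30) (edgeR adjusted p = 3.15e-04). Tdrkh, a Tudor-domain protein of the piRNA pathway, was at 0.813, 0.702 and 0.953 CPM in Gcontrol, 0.243, 0.146 and 0.146 CPM in G1C7 and 2.08, 1.45 and 2.69 CPM in G2C9, with -3.52 (SE 0.35) between the derivatives (edgeR adjusted p = 0.00155). Both are rare transcripts in these cells. The calls between the derivatives given here with a p kept an adjusted p under 0.05 without each of the 9 libraries in turn, except that of Col11a1.

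**Figure D4:**
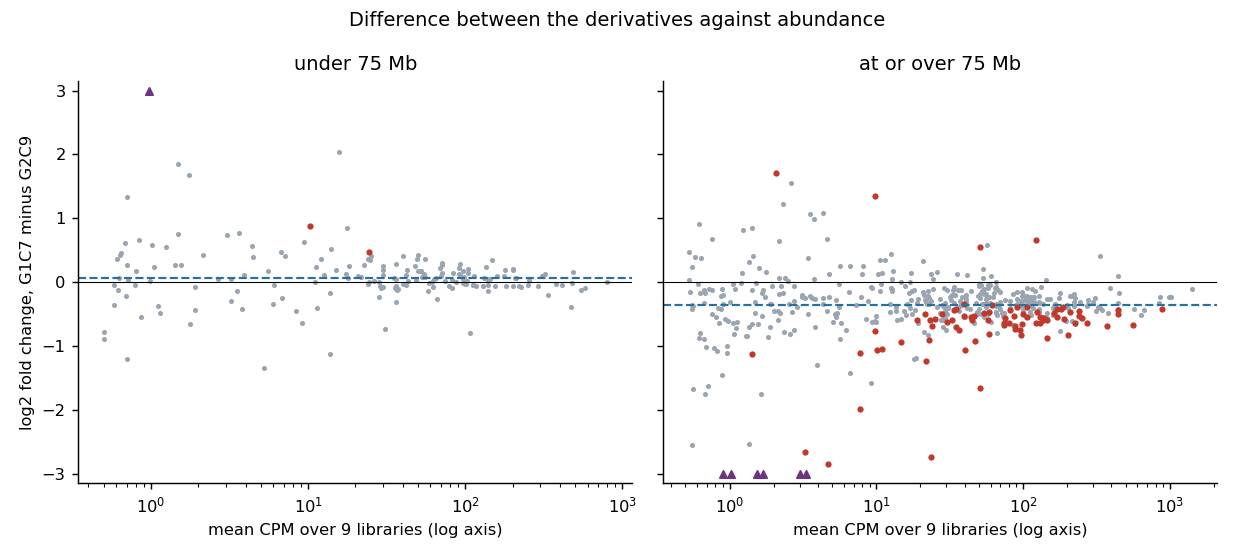
Log2 fold change of G1C7 minus G2C9 against the mean CPM over the 9 libraries (log axis), for chromosome 3 genes under 75 Mb (left) and at or over 75 Mb (right); red points passed an adjusted p of 0.05, triangles are genes beyond ±3 and dashed lines are the side medians of 0.06 and -0.36. The far genes gather around their median as abundance rises.

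Between the derivatives, far genes were lower than near genes in every tertile of mean CPM, and far genes with more reads spread less. Against Gcontrol the lowest tertile differed. In G1C7 its near and far medians were -0.16 and -0.37. They were 0.08 and -0.46 in the middle tertile and 0.04 and -0.47 in the highest. In G2C9 the lowest tertile had -0.24 and -0.13, so the order of the sides was reversed there. Among the 157 far genes in the highest tertile of mean CPM (63.7 CPM or more), 97.5% were below 0 between the derivatives, with a median of -0.40 and quartiles of -0.52 and -0.26. In the tertile below it 89.9% of 158 were below 0, with a median of -0.34, and in the lowest tertile 78.3% of 166, with a median of -0.34 and quartiles of -0.71 and -0.04. Counting error is larger for genes with few reads, and its part in the wider spread was not tested. The median between the derivatives was -0.37 for the 421 protein-coding far genes and -0.26 for the 60 of other types, -0.35 on the plus strand and -0.37 on the minus strand. By exon length it was -0.33 in the shortest tertile, -0.35 in the next and -0.42 in the longest.

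Genes were counted as not following the step where they lay beyond the midline between the side medians, at -0.22 in G1C7 and -0.07 in G2C9. Since the step in G2C9 was small, its midline separates little. Of the 481 far genes, 124 (25.8%) were above the midline in G1C7, 96 (20.0%) in both derivatives and 28 (5.82%) in all 6 derivative libraries. These 96 genes were chosen by their levels and are described only. They had a median mean CPM of 16.5, against 36.3 for the other 385 far genes. Their median between the derivatives was -0.21, against -0.41. They were spread along the far side, at 17.9%, 18.1%, 26.8% and 20.5% of the genes in the stretches from 75, 95, 115 and 135 Mb.

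Dkk2 (ENSMUSG00000028031.6, chr3:132085292-132180304) is a secreted modulator of Wnt signalling that binds the LRP coreceptors. It was at 29.1, 31.2 and 30.4 CPM in Gcontrol, 75.1, 73.1 and 71.3 CPM in G1C7 and 50.7, 52.8 and 46.5 CPM in G2C9. The groups did not overlap, at 1.28 (SE 0.08) in G1C7 and 0.73 (SE 0.08) in G2C9. G1C7 was higher than G2C9 by 0.55 (SE 0.08) (edgeR adjusted p = 0.0085), so Dkk2 went against the difference between the derivatives as well. Ak5, an adenylate kinase of nervous tissue, was at 43.1, 42 and 46.8 CPM in Gcontrol, 72.7, 65.7 and 73.8 CPM in G1C7 and 73.3, 72.7 and 53.5 CPM in G2C9, higher than Gcontrol in all 6 derivative libraries. Fdps, which makes farnesyl diphosphate in the mevalonate pathway, was at 9.43, 9.7 and 10.4 CPM in Gcontrol, 16.1, 15.3 and 16.6 CPM in G1C7 and 11.4, 13.4 and 10.4 CPM in G2C9; G1C7 was above the other 6 libraries.

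In a second pattern the level outside the step was carried in part by G1C7 replicate 2. Fam198b was at 2.79, 2.38 and 2.03 CPM in Gcontrol, 5.14, 37.5 and 6.27 CPM in G1C7 and 28.7, 26.8 and 56.4 CPM in G2C9. Arhgap29, a GTPase-activating protein, was at 10.8, 10.6 and 11 CPM in Gcontrol, 22, 69.5 and 24.1 CPM in G1C7 and 46, 46.9 and 48.3 CPM in G2C9. In both genes all 6 derivative libraries were above Gcontrol and G1C7 replicate 2 was above the other 2 G1C7 libraries by far. Without it the log2 difference from Gcontrol in G1C7 was 1.25 for Fam198b and 1.10 for Arhgap29, against 2.76 and 1.83 with it.

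Cth, which makes cysteine from cystathionine, was at 21.4, 23.3 and 18.2 CPM in Gcontrol, 17.7, 64.4 and 19.3 CPM in G1C7 and 28.4, 27.1 and 64.1 CPM in G2C9. Pdgfc, a ligand of the PDGF receptors, was at 42.3, 45.5 and 39.6 CPM in Gcontrol, 33.3, 70.6 and 34.2 CPM in G1C7 and 52.8, 55.7 and 77.3 CPM in G2C9. For Pdgfc, G1C7 replicates 1 and 3 were below the Gcontrol range, and for Cth replicate 1 was below it and replicate 3 within it. Without G1C7 replicate 2 the difference from Gcontrol changed from 0.69 to -0.18 for Cth and from 0.12 to -0.32 for Pdgfc. Nexn, an actin-binding protein, was at 26.5, 24.1 and 25.5 CPM in Gcontrol, 28.2, 35.7 and 26.5 CPM in G1C7 and 46, 52.4 and 48.8 CPM in G2C9; G2C9 was above the other 6 libraries, by 0.95 (SE 0.12) against Gcontrol.

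Of the 185 near genes, 39 (21.1%) lay below the midline in both derivatives and 19 (10.3%) in all 6 libraries. Bhlhe22 (ENSMUSG00000025128.7, chr3:18054174-18057517), a transcriptional repressor of neural development, was at 20.0, 21.6 and 19.9 CPM in Gcontrol, 1.61, 2.51 and 1.57 CPM in G1C7 and 2.42, 2.53 and 2.83 CPM in G2C9. Both derivatives were below Gcontrol in all 6 libraries, by -3.43 (SE 0.21) in G1C7 and -2.98 (SE 0.20) in G2C9. Cyp7b1, an oxysterol hydroxylase whose gene lies next to Bhlhe22, was at 15.3, 15.3 and 15.5 CPM in Gcontrol, 1.35, 5.83 and 1.39 CPM in G1C7 and 1.11, 1.18 and 3.91 CPM in G2C9, again below Gcontrol in all 6, with G1C7 replicate 2 and G2C9 replicate 3 the highest of their groups. Sox2 was at 69.4, 69.8 and 69.4 CPM in Gcontrol, 58.6, 21.3 and 53.8 CPM in G1C7 and 40.1, 40.8 and 23.2 CPM in G2C9. All 6 derivative libraries were below Gcontrol, and the 2 libraries that stood apart were the lowest.

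Growth and transcription genes of the near side went both ways. Foxo1, a transcription factor restrained by insulin signalling, was at 37.5, 37.5 and 37.8 CPM in Gcontrol, 21.3, 32.1 and 22.5 CPM in G1C7 and 28.2, 26.6 and 25.5 CPM in G2C9, and Skil, a repressor of SMAD proteins, was at 102, 106 and 104 CPM in Gcontrol, 67.3, 81.7 and 65 CPM in G1C7 and 64.5, 61.4 and 84.4 CPM in G2C9. Both were below Gcontrol in all 6 derivative libraries. Hey1, a target of Notch signalling, was at 6.01, 5.62 and 5.86 CPM in Gcontrol, 2.58, 4.3 and 2.78 CPM in G1C7 and 1.94, 1.43 and 2.27 CPM in G2C9, also below Gcontrol in all 6. Spry1, a feedback inhibitor of receptor tyrosine kinases, was at 7.91, 7.41 and 8.2 CPM in Gcontrol, 14.1, 21.3 and 13 CPM in G1C7 and 11.5, 12.3 and 13.7 CPM in G2C9, and all 6 derivative libraries were above Gcontrol. Of the 9 measured growth signalling genes of the near side 4 were below 0 in G1C7 and 6 in G2C9, and of the 10 transcription and RNA-binding genes 4 in each.

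Several near genes were higher in both derivatives. Kcnab1, a beta subunit of potassium channels, was at 7.1, 6.87 and 5.47 CPM in Gcontrol, 34.8, 19 and 35.5 CPM in G1C7 and 18.2, 19.7 and 11.5 CPM in G2C9. All 6 derivative libraries were above Gcontrol, by 2.20 (SE 0.29) in G1C7 and 1.35 (SE 0.28) in G2C9. Nbea, the synaptic protein neurobeachin, was at 27.7, 26.6 and 29.2 CPM in Gcontrol, 50.0, 47.9 and 47 CPM in G1C7 and 53.8, 47.2 and 48.7 CPM in G2C9, higher in all 6 by 0.80 (SE 0.08) and 0.84 (SE 0.08). Zfp704, a zinc finger protein, was at 18.7, 15.6 and 18.9 CPM in Gcontrol, 29.8, 35.1 and 29.1 CPM in G1C7 and 27.5, 21.8 and 24.9 CPM in G2C9, higher in all 6 as well. By edgeR, 0 of 185 near genes were called lower between the derivatives, with 5 at an unadjusted p under 0.05, 1 by DESeq2 and 0 by limma-voom; without G1C7 replicate 2 the edgeR count was 6.

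**Figure D5:**
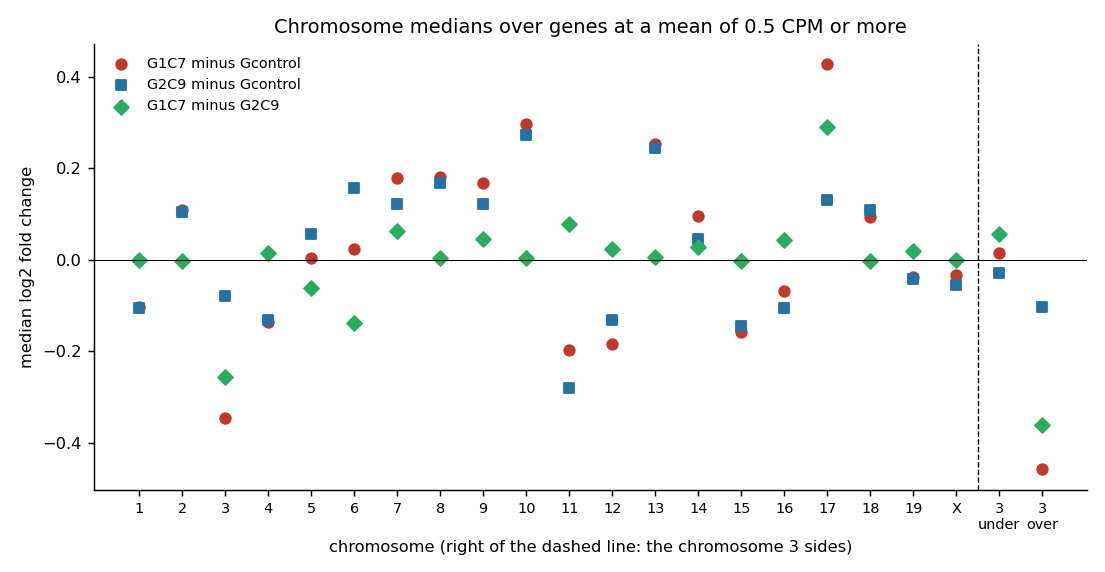
Median log2 fold change over genes at a mean of 0.5 CPM or more for chromosomes 1 to 19 and X in the 3 comparisons, with the 2 sides of chromosome 3 to the right of the dashed line. Chromosome 3 is the lowest for G1C7 minus Gcontrol (-0.34) and for G1C7 minus G2C9 (-0.26), and its far side is lower still.

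Among the 20 chromosomes, chromosome 3 had the lowest median in G1C7, at -0.34, where the other 19 lay between -0.20 (chromosome 11) and 0.43 (chromosome 17). It was also the lowest between the derivatives, at -0.26, with the others between -0.14 (chromosome 6) and 0.29 (chromosome 17). In G2C9 its median of -0.08 was the seventh from the lowest, within the range of the others, -0.28 (chromosome 11) to 0.27 (chromosome 10). Other chromosomes also had single boundaries. On chromosome 13 the difference across its best boundary was 0.54 in G1C7 and 0.57 in G2C9, larger in size than on chromosome 3. On chromosome 8 the 119 genes after 112.7 Mb were the lower side, with a difference of -0.48 in G1C7 and -0.49 in G2C9. Between the derivatives the best boundary of chromosome 8 lay elsewhere, with a difference of -0.03. The step of chromosome 3 was thus not the largest of its kind in G1C7, but chromosomes 12 and 3 had the largest between the derivatives, at 0.44 and -0.42.

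Genes just around the CPM minimum were C230034O21Rik and Arhgef26 inside it, at 0.50 and 0.506 CPM, and 1700112D23Rik and Slc9b2 outside it, at 0.491 and 0.492 CPM. Tested chromosome 3 genes under the minimum had a median of -0.33 in G1C7 for the 129 far ones and -0.17 for the 44 near ones. All 666 genes of the set passed the low-count filter of the fit.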

How the data were processed

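Poly(A) RNA of 9 libraries was measured by RNA-seq, in 3 groups of 3 libraries assigned from the submitters' labels. The values are raw read counts per gene deposited by the authors, made with featureCounts 1.6.0 on GENCODE M25 (GRCm38), per the file headers. STAR 2.6.1c and FastQC 0.11.8 are named in the submitters' processing notes. The headers show no option for pairs or strand, so both mates of a pair add to a count and reads of overlapping antisense genes cannot be told apart; a pair counted as 2 reads also makes counting intervals too narrow.

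The chromosome, the boundary, the gene lists and the rules were chosen with earlier results of these data known. Gene symbols and types came from GENCODE M21 (55141 of 55401 identifiers). All genes that passed filterByExpr (15659) were fitted over the 9 libraries with TMM scaling and edgeR's quasi-likelihood test (edgeR 4.0.16, R 4.3.3), which left 6 residual degrees of freedom, and p was adjusted by Benjamini-Hochberg over all of them. Levels are CPM over TMM-scaled library sizes, log2 fold changes come from the fit, and medians by library use log2(CPM + 0.5). Because the contrasts with Gcontrol chose the boundary, they carry no p here. The p values between the derivatives come from libraries that also served that choice, and they describe single genes only. Named genes are the 6 most abundant per side, the 5 nearest to the boundary, the 10 per side farthest beyond the midline, the 5 with the largest change per side, direction and derivative, up to 4 per list, and the 6 with the largest called change per direction between the derivatives. Alternatives were the RLE and library-total scalings, DESeq2 1.42.0, limma-voom (limma 3.58.1), other filters, boundaries and gene sets, the replicate block, and leaving out libraries.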

Additional observations from a re-analysis of the deposited data

Results flagged for a closer look

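G1C7 and G2C9, compared with each other through the same fit, differed at an adjusted p under 0.05 (edgeR) in 91 of 666 chromosome 3 genes, where 3.36% of all genes tested did. Of these, the 84 far genes lower in G1C7 ranged from 28 to 162 when 1 library was left out, with the share of all genes in those fits not given. The 12 genes below had the largest such differences of each sign among protein-coding genes, as log2 values of G1C7 minus G2C9. Lower in G1C7 were the vesicle transporter Slc6a17 at -5.93, the collagen Col11a1 at -4.38, Tmem144 at -4.02, the kinase Dclk2 at -3.72, Tdrkh at -3.52 and Tchh at -2.85, all on the far side. Col11a1 lost its call without G1C7 replicate 1 or 3, at adjusted p = 0.0707 and 0.0544. Higher in G1C7 were Dkk2 at 0.55, nestin (Nes) at 0.67, the fatty acid transport protein Slc27a3 at 1.35 and the tight junction protein cingulin (Cgn) at 1.70 on the far side. On the near side were Rfxap, a regulator of MHC class II genes, at 0.47 and the Csk-binding adaptor Pag1 at 0.87. Slc27a3 lost its call without G2C9 replicate 2, at adjusted p = 0.051. Rfxap and Pag1 lost theirs without any of 7 libraries, all but G1C7 replicate 2 and G2C9 replicate 3, at adjusted p from 0.0673 to 0.127 and from 0.0837 to 0.142. Cgn also lost its call without any of 7 libraries, there all but G1C7 replicates 2 and 3, at adjusted p from 0.0742 to 0.155.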

How the results depend on the processing

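The step kept its sign under every alternative run. Leaving out 1 library gave -0.51 to -0.45 in G1C7, -0.09 to -0.04 in G2C9 and -0.45 to -0.42 in G1C7 minus G2C9, where the step is that of the fitted differences and not a subtraction of the other 2. In G1C7 it was -0.45 with limma-voom, -0.50 at a mean of 5 CPM or more, -0.46 with the boundary at 80 Mb, -0.49 for protein-coding genes only, -0.44 from group means and -0.49 without both libraries that stood apart.

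Counts of calls depended on single libraries. Leaving out 1 library gave, in G1C7, 4 to 25 near genes lower, 4 to 22 near genes higher, 105 to 270 far genes lower and 4 to 9 far genes higher. In G2C9 it gave 7 to 32, 2 to 17, 14 to 74 and 6 to 31 in the same order, and between the derivatives 0 to 6, 0 to 7, 28 to 162 and 2 to 5. Without both libraries that stood apart the counts in that order were 63, 40, 373 and 16 in G1C7, 61, 41, 189 and 78 in G2C9, and 20, 26, 323 and 13 between the derivatives. DESeq2 gave 21 near genes lower in G1C7, 27 near and 59 far genes lower in G2C9, and 1, 6, 150 and 7 between the derivatives. At a mean of 5 CPM or more, 8 near genes were lower in G1C7 and 8 in G2C9. With the boundary at 80 Mb, 1 near gene was lower between the derivatives. The cause was not tested.

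With the replicate block, 5 near genes were lower in G1C7; in G2C9 9 near genes were lower, 4 near higher, 18 far lower and 7 far higher; between the derivatives 0 near genes were higher, 27 far lower and 2 far higher. Correlations of the deviations of same-numbered libraries ranged from -0.029 to 0.071 with Gcontrol. They were 0.62, -0.68 and -0.72 between the derivatives. G1C7 replicate 2 and G2C9 replicate 3, the libraries that stood apart, correlated at 0.77. Because these 2 libraries deviated far more than the others, the correlations show no pairing by number but cannot exclude one.

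Of 26 named genes called between the derivatives, 11 kept the call without each of the 9 libraries, 12 with the replicate block, 26 with DESeq2 and 24 with limma-voom. Golim4, not called, ranged from -0.032 to 0.075 without 1 library, with its sign changed to -0.032 without G1C7 replicate 2 and to -0.0055 without G2C9 replicate 2. Of 3502 alternative values of named genes against Gcontrol, 74 moved by more than the spread between libraries and 0 called values changed sign. Changes of sign were not counted for values that were not called. For Slc6a17, with 2 reads in G1C7, the few reads limit the size of the fold but not its direction.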
